A study of Mus musculus with 6 samples.

Results

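The mitochondrial carrier family was followed in brown fat of cold-exposed mice with and without the cyclic AMP-making enzyme Adcy3 in their adipocytes. Its members were taken as every protein-coding gene of the deposited table whose symbol starts with Slc25a, plus Ucp2 and Ucp3, with Slc25a44 and Ucp1 left out. This gave 48 genes of 54385 in the table. Of these, 41 had enough counts to be tested and 7 did not. Polyadenylated RNA was sequenced from interscapular brown adipose tissue of 6 C57BL/6N mice that had received chow for 20 weeks and were then kept at 5 °C for 24 hours. The 3 control mice carried floxed Adcy3 on both alleles and no Cre (Adcy3-FL/FL/Adipoq-wt/wt). The 3 knockout mice carried the same floxed alleles and one Adipoq-Cre allele (Adcy3-FL/FL/Adipoq-wt/cre). Adipoq-Cre acts in adipocytes, so other cells of the depot keep the gene, and every animal was in the cold, so no warm group is compared. Nothing in the labels names the mice individually beyond a replicate number, and p-values measure the spread between these libraries. Where the series design text disagrees (on depot, age and number of replicates), the sample labels were followed.

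Mitochondrial carriers are small proteins of the inner mitochondrial membrane, built from repeats of a paired membrane helix. They move nucleotides, phosphate, keto acids, amino acids, acylcarnitines and cofactors between cytosol and matrix, and most of them exchange one substrate for another. Brown adipocytes depend on them because fuel must enter the matrix and because the founding uncoupling protein, Ucp1, is itself a carrier that lets protons back into the matrix and so makes heat.

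Total estimated counts ranged from 13956786 to 17538044 per library. In counts per 1000000 (CPM), Adcy3 itself stood at 135, 169 and 158 in the controls and 21.9, 30.3 and 24.1 in the knockouts, as the labels have it (log2 fold change -2.60 ± 0.17, SE; edgeR adjusted p = 0.00146). All 7 brown adipocyte markers were present in every library. Ucp1 stood at 93.9%, 104% and 102% of its control mean in the controls and at 124%, 124% and 132% in the knockouts (edgeR adjusted p = 0.235, and 0.0416 without knockout library 1). The 7 markers all had positive log2 fold changes (median 0.33), 4 of them with every knockout above every control, and so did the 4 markers of all adipocytes (median 0.21), none of the 11 being called. The 6 endothelial markers, summed, overlapped between groups (535 to 665 CPM in controls, 522 to 669 CPM in knockouts). Their part in the mostly positive values of the carriers was not tested. Skeletal muscle transcripts were unevenly present. Summed over 20 muscle markers, control libraries 1 to 3 held 21320, 19504 and 15549 CPM, against 9681, 719 and 69.7 CPM for knockout libraries 1 to 3. None of the 20 markers was at 0 in any library, and their part in the results below was not tested. Knockout library 1 also stood apart by transcript length. Relative to the other 2 knockout libraries, genes whose longest coding transcript is under 2000 bases were higher in it (median log2 difference 0.37 over 4108 tested genes), and longer ones were not (-0.05 over 10646). The carriers did the same. The 15 tested members with short transcripts had a median of 0.34, with 14 of 15 positive (93.3%, against 82.1% of all short tested genes). The 26 longer members had a median of -0.05. Knockout library 1 was the highest of the 6 libraries for 15 members (28.2% of all genes) and the lowest for 6 members (24.2% of all genes).

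No carrier gene passed the test between genotypes. By the quasi-likelihood test of edgeR, adjusted over all tested genes after Benjamini and Hochberg, 0 of 41 members had an adjusted p under 0.05, where 0.0609% of the 14767 tested genes did. DESeq2 also called 0 members (2.08% of all genes), as did limma-voom (0.223% of all genes). Without adjustment, 4 members were higher and 2 were lower at p under 0.05 in edgeR. Those are 9.76% and 4.88% of the members, against 2.87% and 7.60% of all tested genes. DESeq2 had 8 higher and 3 lower without adjustment (3.53% and 6.73% of all genes). All 3 knockout libraries lay above all 3 controls for 9 members (22% of them, 7.63% of all genes), among them Slc25a1, Slc25a5, Slc25a17, Slc25a20, Slc25a32, Slc25a35, Slc25a39 and Slc25a48. All knockouts lay below all controls for 4 members (9.76%, against 10.8% of all genes), which were Slc25a10, Slc25a12, Slc25a37 and Slc25a47. The median log2 fold change was 0.09 over the members and 0.01 over all tested genes. Positive values were found for 25 of 41 members (61%) and for 51.7% of all tested genes. Without knockout library 1, all knockouts lay above all controls for 12 members and below for 9 (15.1% and 19.0% of all genes), and 6 were higher and 5 lower at unadjusted p under 0.05 (4.92% and 11.7%). With no filter on low counts, 2 of the 48 members (Slc25a12 and Slc25a4) were called lower and 4 were lower without adjustment (2.45% and 5.48% of all genes). Most members stayed within a narrow band, as the plot by transported substrate shows, and Slc25a12 and Slc25a4 had the lowest log2 fold changes.

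**Figure D1:**
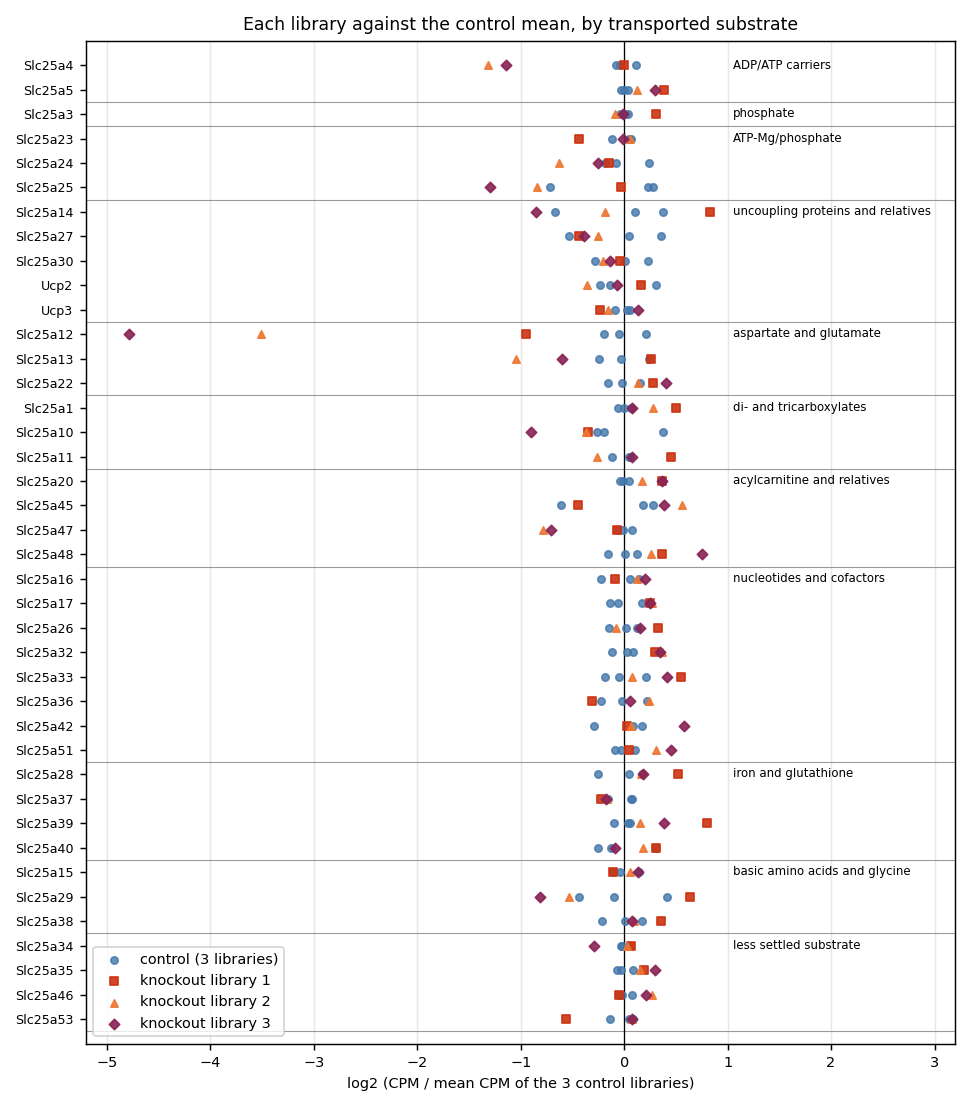
Level of 40 tested carrier genes in each library as log2 of CPM over the mean CPM of the 3 controls, with genes grouped by transported substrate (blue circles, controls; square, triangle and diamond, knockout libraries 1, 2 and 3). Slc25a12 and Slc25a4 are low in knockout libraries 2 and 3, while Slc25a4 in knockout library 1 sits at 100% of the control mean.

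Family members differed in level far more than genotypes did. Levels between genes are given as CPM per kilobase of the longest coding transcript. In controls, 8 members were at 100 or more on this scale, 23 at 10 or more, and 11 of the 48 were under 1. The citrate carrier Slc25a1 was the most abundant at 471 CPM per kilobase in controls and 579 in knockouts. It was followed by the heart-type ADP/ATP carrier Slc25a4 (286 in controls, 177 in knockouts), the carnitine-acylcarnitine carrier Slc25a20 (285 and 352), the ADP/ATP carrier Slc25a5 (272 and 329), Slc25a39, which is needed for glutathione uptake (239 and 331), and the phosphate carrier Slc25a3 (221 and 234). The NAD carrier Slc25a51 (131 and 159) came next. On the unscaled CPM, the 10 most abundant members held 77.4% of the family's signal in controls. Together the 48 genes took 0.538%, 0.550% and 0.572% of the counts of control libraries 1 to 3. They took 0.618%, 0.540% and 0.564% of those of the knockouts, and the groups overlapped.

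**Figure D2:**
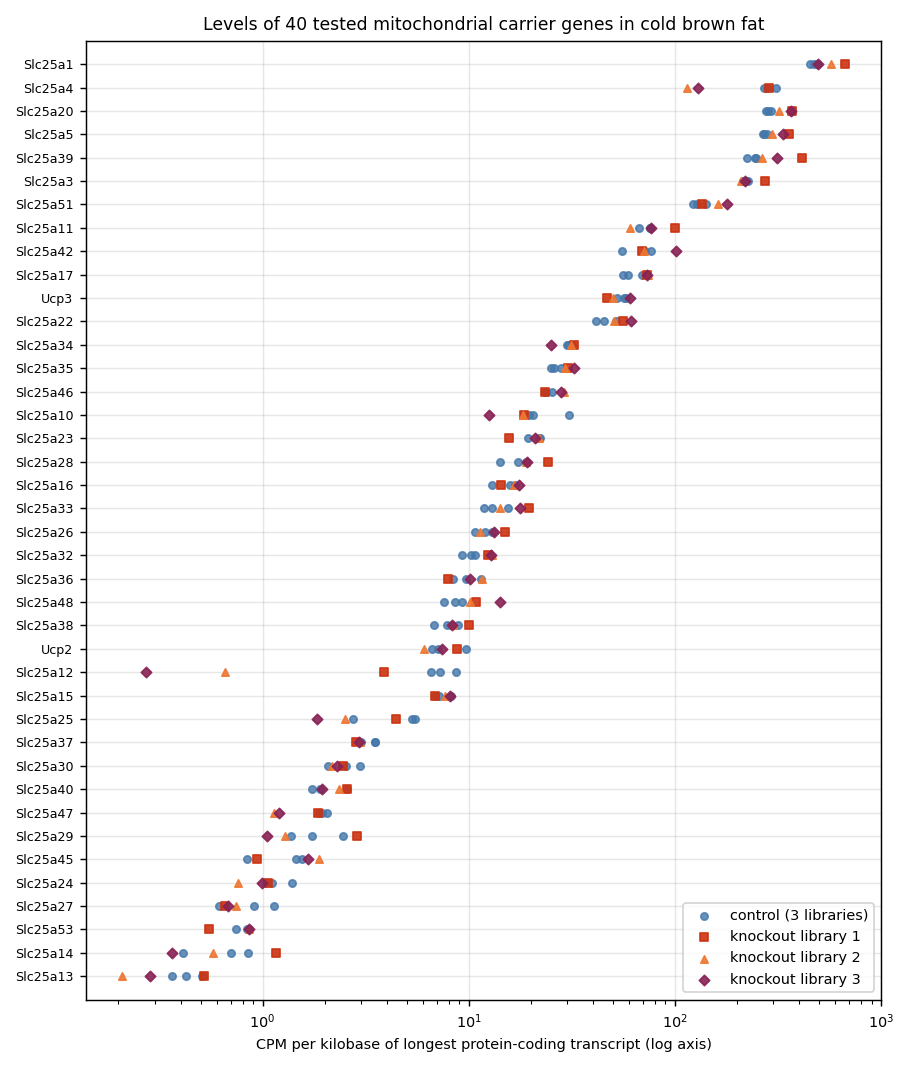
CPM per kilobase of 40 tested carrier genes on a log axis, ordered by the control mean, with 1 point per library. Slc25a1 heads the order at 471 in controls, Slc25a13 ends it at 0.432, and for most genes the 6 libraries lie close together.

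The ADP/ATP carriers export ATP made in the matrix and import ADP, and they are known to let fatty acids carry protons back as well. Slc25a4 (ENSMUSG00000031633, GRCm38 chromosome 8, 46206797 to 46211284), the isoform typical of heart and skeletal muscle, was at 594, 536 and 520 CPM in control libraries 1 to 3. In knockout libraries 1 to 3 it was at 550, 221 and 249 CPM. Libraries 2 and 3 were thus well below every control and library 1 was among them, so the groups overlapped. This is -0.69 ± 0.32 (standard error, SE) as a log2 fold change (edgeR adjusted p = 0.512). With knockout library 1 left out it was -1.22 ± 0.12 (SE) and passed (edgeR adjusted p = 0.000158). In that fit 5.35% of all genes were called lower, all 20 muscle markers among them, and their part in the call of Slc25a4 was not tested.

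Slc25a5 (ENSMUSG00000016319, chromosome X, 36795651 to 36798807), the isoform of most other tissues, had a fold change of the opposite sign. It was at 331, 345 and 336 CPM in controls, against 441, 368 and 414 CPM in knockouts, so that every knockout was above every control (log2 fold change 0.27 ± 0.12, SE; edgeR adjusted p = 0.490). Knockout library 1 was the highest, and without it the value was 0.21 ± 0.11 (SE; edgeR adjusted p = 0.375). Whether the length of its longest coding transcript (1240 bases) has a part in the value of Slc25a5 was not tested. Its processed pseudogene Slc25a5-ps was at 0.209 CPM in controls, a small amount beside the gene itself. The germ cell isoform Slc25a31 was close to absent, with 24 counts over all 6 libraries. Slc25a4 made up 53.6%, 50% and 49.9% of the ADP/ATP carrier signal per kilobase in control libraries 1 to 3. Among the knockouts its share was 44.5%, 27.9% and 27.9%. In the controls, then, the isoforms were at nearly equal levels, and in knockout libraries 2 and 3 Slc25a5 predominated. Summed, Slc25a4 and Slc25a5 stood at 576, 556 and 541 CPM per kilobase in control libraries 1 to 3. The sums for knockout libraries 1 to 3 were 642, 412 and 463. Knockout library 1 thus lay above every control, and knockout libraries 2 and 3 lay below every control. Over 3 libraries per group, the mean was 558 (SD 17.2) for controls and 506 (SD 121) for knockouts. The means differed by less than the knockout SD, which reflects this split. In bulk tissue, fewer cells of a type and less RNA per cell cannot be told apart. Slc25a3, which brings in the phosphate for ATP synthesis, was at 357 ± 9.50 and 377 ± 56.1 CPM (log2 fold change 0.08 ± 0.14, SE), and its sign turned without knockout library 1 (-0.04).

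The aspartate-glutamate carriers are part of the malate-aspartate shuttle, which passes reducing equivalents from the cytosol into the matrix. This pair showed the lowest value of the family. Because its members differed so widely in level, the 250 bases before the RefSeq start of each are shown (GRCm38.p6, minus strand for both, written along the gene), with matches to the E-box letters CANNTG in capitals.
Slc25a12, chr2:71367756-71368005: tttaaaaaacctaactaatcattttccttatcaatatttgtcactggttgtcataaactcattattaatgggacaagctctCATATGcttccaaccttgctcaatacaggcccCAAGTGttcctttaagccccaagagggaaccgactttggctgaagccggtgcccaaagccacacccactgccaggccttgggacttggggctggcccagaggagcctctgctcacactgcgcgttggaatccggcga
Slc25a13, chr6:6217174-6217423: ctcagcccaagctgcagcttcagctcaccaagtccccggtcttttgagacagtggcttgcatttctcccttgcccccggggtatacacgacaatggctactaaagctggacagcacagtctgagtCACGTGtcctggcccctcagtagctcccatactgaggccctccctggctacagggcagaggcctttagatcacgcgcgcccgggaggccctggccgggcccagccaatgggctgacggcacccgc
The window of Slc25a12 holds 2 such matches and is 49.6% G and C, and that of Slc25a13 holds 1 match and is 62.8% G and C. E-box letters are common, being found on either strand in 69.3% of all 27025 genes of the RefSeq promoter table, and a match marks letters only.

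Slc25a12 (ENSMUSG00000027010, chromosome 2, 71271063 to 71367749), the isoform of muscle and brain, was at 55.3, 45.9 and 41.7 CPM in control libraries 1 to 3. The knockout libraries 1 to 3 were at 24.6, 4.17 and 1.72 CPM. Every knockout was below every control, and the knockouts spread over a wider range than the gap between the groups. On average the knockouts held 21.3% of the control level (log2 fold change -2.24 ± 0.78, SE; edgeR adjusted p = 0.376). Leaving out knockout library 1 gave -4.03 ± 0.30 (SE) and a call (edgeR adjusted p = 2.93e-05). Leaving out any other library gave no call, and over all 6 such fits the value ran from -4.03 to -1.73. Slc25a12 ordered the 6 libraries exactly as the summed muscle markers did, and it was 1 of 41 members to do so, against 1.89% of all tested genes. In knockout libraries 1 to 3 it was at 51.6%, 8.76% and 3.61% of its control mean, where the summed muscle markers were at 51.5%, 3.82% and 0.371% of theirs. The part of the muscle transcripts in the values of Slc25a12 was not tested.

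Slc25a13, the isoform typical of liver, was low everywhere, at 1.35 ± 0.227 CPM in controls, against 1.06 ± 0.507 CPM in knockouts (SD, n = 3 each). Slc25a12 held 94.5%, 94.5% and 94.7% of the pair's signal per kilobase in control libraries 1 to 3. In the knockouts it held 88.1%, 75.9% and 48.7%, so the pair came close to equal levels only in knockout library 3. That library also had the fewest muscle transcripts, and whether muscle content has a part in the share was not tested. The shares rest on few reads. Slc25a13 totalled 67 counts in the control group and 49 in the knockout group. In knockout library 3, Slc25a12 was at 1.72 CPM and Slc25a13 at 0.891 CPM. The glutamate carrier Slc25a22 did not share the pattern of Slc25a12. It was at 117, 128 and 145 CPM in controls, against 158, 143 and 172 CPM in knockouts, with overlapping groups (log2 fold change 0.28 ± 0.14, SE; edgeR adjusted p = 0.529). Its counterpart Slc25a18 had 19 counts over all libraries.

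**Figure D3:**
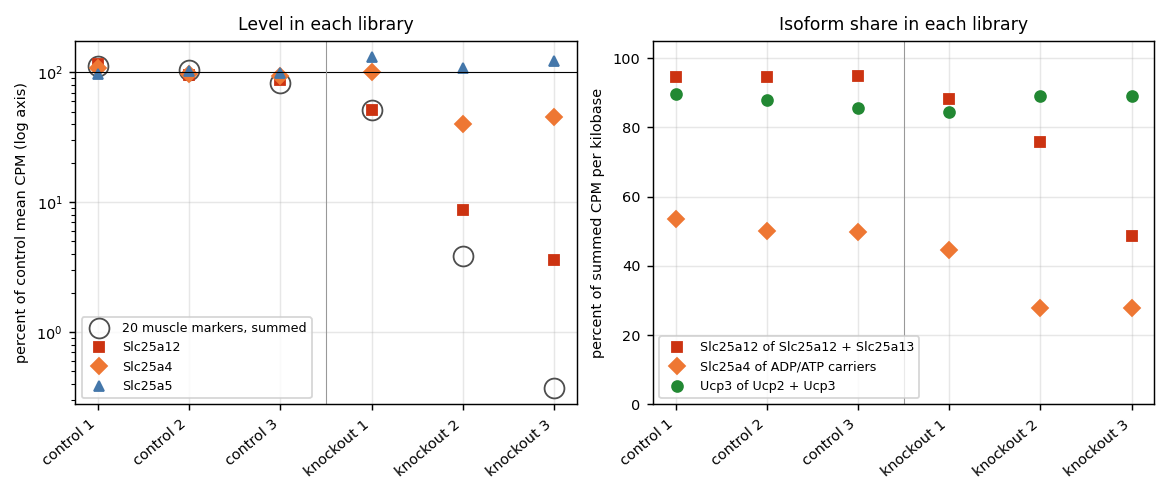
Left, level of Slc25a12, Slc25a4, Slc25a5 and 20 summed muscle markers in each library as a percentage of the control mean (log axis). Right, share of Slc25a12, Slc25a4 and Ucp3 in the summed CPM per kilobase of their isoform groups: the Slc25a12 and Slc25a4 shares are lowest in knockout libraries 2 and 3, and the Ucp3 share stays between 84.3% and 89.5%.

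Enzymes that work with these carriers were examined as a list of 9 genes of citrate and malate metabolism, none of which passed in edgeR. Got2, the mitochondrial aspartate aminotransferase of the same shuttle, was at 117, 107 and 97.1 CPM in controls, against 77.3, 44.8 and 43.2 CPM in knockouts. All knockouts were below all controls (log2 fold change -0.96 ± 0.23, SE; edgeR adjusted p = 0.205). It was called by DESeq2 (adjusted p = 0.00140) and by edgeR without knockout library 1 (adjusted p = 9.23e-05). Like Slc25a12 it was highest of the knockouts in library 1, at 72.3% of its control mean, and it stood at 41.9% and 40.4% in the other 2. The cytosolic partner Got1 was at 104 CPM in controls, against 86.1 CPM in knockouts, with overlap. Gpd1, of the glycerol phosphate shuttle, which serves the same purpose by another route, was at 9915 and 12494 CPM, with all knockouts above all controls (log2 fold change 0.33 ± 0.10, SE; edgeR adjusted p = 0.296). It was called without knockout library 1 (edgeR adjusted p = 0.0163).

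Among carriers of di- and tricarboxylates, Slc25a1 exports citrate, the source of cytosolic acetyl-CoA for fatty acid synthesis. It was at 751, 785 and 819 CPM in controls, against 1113, 953 and 827 CPM in knockouts. The lowest knockout was only just above the highest control (log2 fold change 0.30 ± 0.14, SE; edgeR adjusted p = 0.507), and the value was 0.18 ± 0.11 (SE) without knockout library 1. Slc25a10, which exchanges malate or succinate for phosphate, was lower. It was at 41.6, 39.8 and 61.9 CPM in controls, against 37.6, 36.9 and 25.5 CPM in knockouts (log2 fold change -0.52 ± 0.22, SE; edgeR adjusted p = 0.467). Control library 3 and knockout library 3 were the extremes, and the remaining 4 libraries lay within a few CPM of each other. Slc25a10 is abundant in white fat. The summed level of 5 white adipocyte markers was 98.3, 75.6 and 107 CPM in controls, against 53.6, 50.8 and 50.6 CPM in knockouts, with 1 marker at 0 in knockout library 2. In edgeR 0 of the 4 tested markers were called, while DESeq2 called 2. Their part in the value of Slc25a10 was not tested. The oxoglutarate carrier Slc25a11, the other carrier of the malate-aspartate shuttle, was at 124 ± 8.51 CPM in controls, against 135 ± 33.9 CPM in knockouts (SD, n = 3 each). Its fold change turned from 0.12 to -0.08 on the log2 scale without knockout library 1. Slc25a21 had 8 counts in all.

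Of the 4 tested members grouped as the acylcarnitine carrier and its relatives, 3 had positive values and 1 a negative one, and none passed. Slc25a20 brings acylcarnitines into the matrix and is the membrane step of the carnitine shuttle. It was at 505, 524 and 494 CPM in controls, against 656, 571 and 654 CPM in knockouts, with no overlap (log2 fold change 0.30 ± 0.12, SE; edgeR adjusted p = 0.425). Left-out libraries kept it between 0.25 and 0.37. Of 5 other genes of the shuttle, 4 had positive values and none passed. Cpt2, which rebuilds acyl-CoA on the matrix side, was at 510 CPM in controls, against 605 CPM in knockouts with no overlap (log2 fold change 0.25 ± 0.11, SE). Cpt1b, the outer membrane enzyme of muscle and brown fat, was at 769 and 871 CPM and overlapped. Slc25a48, which has been linked to choline uptake, shared the largest positive log2 fold change of the tested members with Slc25a39. It was at 28.8, 31.2 and 25.7 CPM in controls, against 36.7, 34.2 and 48.0 CPM in knockouts, again without overlap (log2 fold change 0.47 ± 0.16, SE; edgeR adjusted p = 0.356). Slc25a45 and Slc25a47 were under 5 CPM in every library. Slc25a47 was at 3.53, 3.67 and 3.89 CPM in controls, just above knockout library 1 at 3.52 CPM and further above the others at 2.15 and 2.26 CPM.

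**Figure D4:**
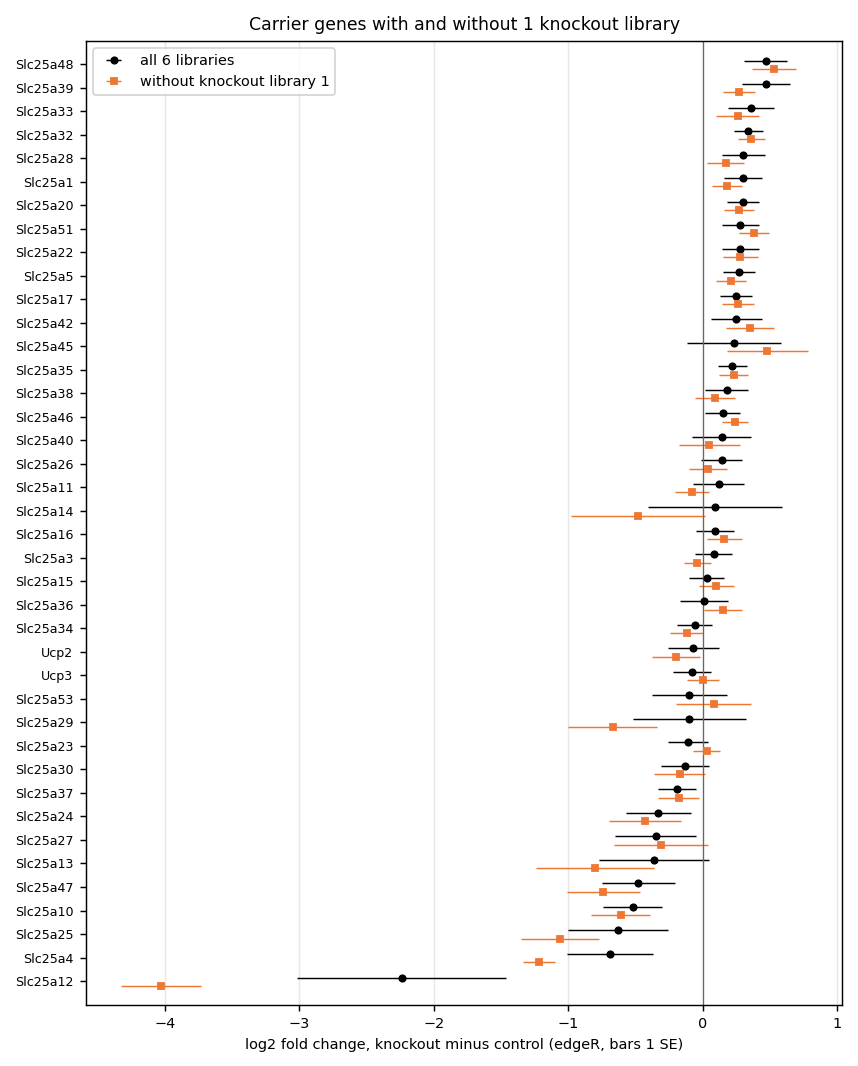
Log2 fold change, knockout minus control, of 40 tested carrier genes with bars of 1 SE, from all 6 libraries (black circles) and without knockout library 1 (orange squares). Slc25a12 moves from -2.24 to -4.03 and Slc25a4 from -0.69 to -1.22, and these are the only members called in either fit.

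The uncoupling proteins beside Ucp1 did not separate the genotypes. Ucp3, found in brown fat and skeletal muscle and known to follow fatty acid supply, was at 138, 128 and 141 CPM in controls, against 115, 122 and 149 CPM in knockouts. The knockouts lay on both sides of the controls (log2 fold change -0.08 ± 0.14, SE; edgeR adjusted p = 0.891), and the value was 0.00 ± 0.12 (SE) without knockout library 1. Its lowest value was in knockout library 1 and its highest in knockout library 3, which has the fewest muscle transcripts. Whether muscle content has a part in the level of Ucp3 was not tested. Ucp2, common in immune cells, was at 26.5, 28.4 and 38.5 CPM in controls, against 34.9, 24.3 and 29.6 CPM in knockouts (log2 fold change -0.07 ± 0.19, SE). The 8 macrophage markers, summed, were at 99.3, 65.8 and 120 CPM in controls, against 112, 57.2 and 50.7 CPM in knockouts, with none at 0. In each group the library highest in Ucp2 was also the highest in these markers, while the remaining libraries ran in the opposite order. The part of macrophages in the values of Ucp2 was not tested. Per kilobase, Ucp3 was 87.7% ± 1.92 of the pair in controls, against 87.5% ± 2.80 in knockouts (SD, n = 3 each). The more distant relatives Slc25a14, Slc25a27 and Slc25a30, first described in brain and kidney, were between 0.653 and 10.6 CPM in all libraries and overlapped between groups.

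Carriers of nucleotides and cofactors bring the building blocks of nucleic acids and of enzyme cofactors across the membrane. All 9 had positive log2 fold changes, from 0.01 to 0.36 with a median of 0.25, and none passed. Slc25a36 was the lowest of the 9, at 0.01 ± 0.18 (SE), and its sign varied with the libraries used. Slc25a32, which carries folate and is needed for matrix flavin supply, had the smallest p of the family. It was at 63.1, 60.3 and 54.6 CPM in controls, against 72.9, 76.3 and 75.6 CPM in knockouts, a clear gap between tight groups (log2 fold change 0.34 ± 0.11, SE; edgeR adjusted p = 0.339). Without knockout library 1 the adjusted p was 0.0973. The peroxisomal cofactor carrier Slc25a17 was at 120, 102 and 96.6 CPM in controls, against 126, 128 and 126 CPM in knockouts. Its groups did not overlap either, but its controls spread more widely than the gap between the groups (log2 fold change 0.25 ± 0.12, SE; edgeR adjusted p = 0.532).

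Slc25a51 supplies NAD to the matrix. It was at 569, 626 and 546 CPM in controls, against 598, 719 and 795 CPM in knockouts, where library 1 lay among the controls (log2 fold change 0.28 ± 0.14, SE; edgeR adjusted p = 0.547). Library 3 led there, and it also led for the coenzyme A carrier Slc25a42: 177, 230 and 244 CPM in controls against 221, 227 and 324 CPM in knockouts. The pyrimidine nucleotide carriers Slc25a33 and Slc25a36 differed. Slc25a33 was at 25.3 ± 3.54 and 32.5 ± 5.31 CPM, and Slc25a36 at 51.4 ± 7.91 and 51.8 ± 9.79 CPM (SD, n = 3 each). For Slc25a33 this is 0.36 ± 0.17 (SE) on the log2 scale (edgeR adjusted p = 0.512). The S-adenosylmethionine carrier Slc25a26 was at 22.9 and 25.3 CPM and Slc25a16 at 47.9 and 50.8 CPM, both with overlap.

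Slc25a39, which together with its relative Slc25a40 is tied to matrix glutathione, was at 377, 419 and 412 CPM in controls. In knockouts it was at 700, 447 and 526 CPM. All knockouts exceeded all controls, and library 1 was far above the others (log2 fold change 0.47 ± 0.18, SE; edgeR adjusted p = 0.407). Without that library the value was 0.27 ± 0.12 (SE). The longest coding transcript of Slc25a39 has 1685 bases, within the length class that was higher in this library across the transcriptome. Whether transcript length has a part in the value of Slc25a39 was not tested. Slc25a40 was at 5.74 CPM in controls, against 6.34 CPM in knockouts. The mitoferrins bring iron into the matrix for heme and iron-sulfur clusters. Slc25a28, the form of most tissues, was at 21.7, 29.2 and 26.7 CPM in controls, against 37.2, 29.0 and 29.3 CPM in knockouts. Slc25a37, the erythroid form, was at 14.7, 14.6 and 12.5 CPM in controls, against 11.9, 12.4 and 12.3 CPM in knockouts. The gap between its groups was small (log2 fold change -0.19 ± 0.14, SE; edgeR adjusted p = 0.665). Slc25a28 therefore took 83.3% ± 2.78 of the mitoferrin signal per kilobase in controls, against 87.5% ± 1.69 in knockouts (SD, n = 3 each), with all knockouts above all controls. The 6 erythroid markers, summed, were at 1324, 724 and 752 CPM in controls, against 1591, 870 and 927 CPM in knockouts, with 1 marker at 0 in control library 2. Library 1 was the highest for these markers in both groups. For Slc25a37 it was the highest of the controls and the lowest of the knockouts. The part of blood cells in the mitoferrin values was not tested.

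The ATP-Mg/phosphate carriers, several of which calcium activates, set the size of the matrix adenine nucleotide pool. All 3 tested members had negative values. Slc25a25 was at 18.7, 19.4 and 9.72 CPM in controls, against 15.6, 8.87 and 6.47 CPM in knockouts, with overlap (log2 fold change -0.63 ± 0.37, SE; edgeR adjusted p = 0.597). Without knockout library 1 it was -1.06 ± 0.29 (SE) and remained uncalled (edgeR adjusted p = 0.0781). It was also lowest in knockout libraries 2 and 3, those poorest in muscle markers, and control library 3 lay near them. In control library 3 it was at 61% of its control mean, where the summed muscle markers were at 82.7% of theirs. In knockout library 1 these were 98.1% and 51.5%. The part of the muscle transcripts in the values of Slc25a25 was not tested. Slc25a23, the most abundant of the group, was at 71.2 ± 4.89 and 65.7 ± 11.6 CPM, and its sign turned to 0.03 without knockout library 1. Slc25a24 was at 4.05 ± 0.640 and 3.22 ± 0.544 CPM (SD, n = 3 each). Slc25a23 made up 78.7% ± 5.45 of the group's signal per kilobase in controls, against 83.0% ± 7.85 in knockouts. Slc25a41 had 4 counts and Slc25a54 had 1 count over all libraries.

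None of the 3 tested carriers of basic amino acids and glycine passed, and their groups overlapped. The ornithine carrier Slc25a15 was at 25.4 ± 2.36 CPM in controls, against 25.9 ± 2.20 CPM in knockouts. Slc25a29, which carries basic amino acids, was at 3.67 ± 1.10 and 3.44 ± 1.96 CPM, and Slc25a38, the glycine carrier that feeds heme synthesis, was at 14 ± 1.81 and 15.9 ± 1.72 CPM (SD, n = 3 each). Slc25a29 depended on knockout library 1, its log2 fold change going from -0.10 ± 0.42 to -0.67 ± 0.33 (SE) without it, with both remaining knockouts below all controls and no call (edgeR adjusted p = 0.363). Slc25a2 had 24 counts in all. Among members of less settled substrate, Slc25a35 was at 94.3, 102 and 91.8 CPM in controls, against 110, 107 and 118 CPM in knockouts without overlap (log2 fold change 0.22 ± 0.11, SE; edgeR adjusted p = 0.555). Its exons overlap those of Rangrf on the opposite strand over 31.3% of their length, and the use of strand in counting was not given in the sources used here. Rangrf was at 4.61 CPM in controls, little beside Slc25a35. The neighbour in sequence, Slc25a34, was at 82.2 ± 2.46 and 79.1 ± 10.4 CPM (SD, n = 3 each). Slc25a46, an outer membrane protein tied to mitochondrial shape, was at 106 ± 4.68 and 117 ± 13.1 CPM, and Slc25a53 at 2.60 and 2.41 CPM. Slc25a43 had 33 counts in all.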

How the data were processed

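Estimated counts per gene, which need not be whole, were deposited by the authors for 6 libraries without scaling (1 column each, matched through the samples' descriptions). StringTie, Salmon and edgeR and the build GRCm38 are named per the submitters' processing notes; versions, settings, annotation release and strand use were not given in the sources used here. Estimation divides reads shared by similar genes. Symbols, positions and transcript lengths came from GENCODE vM21 (54131 identifiers matched), promoters from RefSeq.

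Counts were rounded. Genes passing filterByExpr (minimum count 10, minimum total 15) were tested in R 4.3.3 by edgeR 4.0.16 (a two-sided quasi-likelihood F test, TMM, genotype as the only term, adjusted p under 0.05). CPM is per 1000000 of TMM-scaled library size, and 3 counts correspond to 0.172 to 0.203 CPM. The common biological coefficient of variation was 25.2%. The SE is the log2 fold change over the root of F. The fit was tested on simulated data. Replicates differed beyond counting noise in a chi-square test. Alternatives were RLE factors, DESeq2 1.42.0, limma-voom (limma 3.58.1), no filter, 1 CPM in 3 libraries, a replicate block, each library left out and exon union length.

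The members, lists and tests were chosen with earlier results of these data known. Named with full values were the 10 tested members of smallest p, the 10 most abundant per kilobase and the tested members of the isoform groups, 27 in all; other members are given more briefly. Counts cover every tested member, of which 1 is not reported here by name. Adcy3, Acta1, Ckm and Ucp1 were set for tissue content, of which Acta1 and Ckm enter through the muscle sum. Marker lists for all adipocytes and endothelium served as checks.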

Additional observations from a re-analysis of the deposited data

How the results depend on the processing

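With all alternatives, 304 of 324 recomputed values of the 27 named members kept direction and call. Leaving out each library in turn, members called lower numbered 0 to 2, and those at unadjusted p under 0.05 1 to 6 higher and 0 to 5 lower (over all genes, 1.31% to 5.08% and 5.14% to 11.7%). Members without overlap numbered 9 to 14 higher and 4 to 9 lower (over all genes, 10.9% to 15.2% and 13.9% to 19.0%). The 14 are 34.1% of the members, in a fit where 15.2% of all genes did so. All genes called ranged from 3 to 45 higher and 1 to 812 lower, and citrate and malate genes called from 0 to 2. The highest of the values for lower and called genes came without knockout library 1, and the 14 without knockout library 2. Without a low-count filter 2 members were called lower (Slc25a12 at -2.23 and Slc25a4 at -0.68) and 4 were lower unadjusted; 111 genes were higher and 782 lower, 1 of them a citrate and malate gene. DESeq2 gave 8 members higher unadjusted, 31 genes higher and 276 lower, with 1 citrate and malate gene; limma-voom gave 27 lower. The cause of these differences between tests was not tested. As a replicate block, the replicate number gave 2 genes higher and 2 lower over all genes, and 0 members called. In that fit 2 members were higher and 3 lower unadjusted. The share of all genes at this unadjusted level is not given for that fit, so these member counts have nothing beside them. Same-numbered libraries deviated together only weakly (0.0739, 0.107 and 0.0531), although 6 of 6 correlated best with their own number, so they were not taken as pairs.

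Signs turned with a library left out for Slc25a3 (-0.04 to 0.16), Slc25a11 (-0.08 to 0.28), Slc25a15 (-0.05 to 0.10), Slc25a23 (-0.21 to 0.03), Slc25a29 (-0.67 to 0.16), Slc25a36 (-0.12 to 0.15) and Ucp2 (-0.20 to 0.07), and for Slc25a36 with a filter of 1 CPM (0.00). With exon union length, control and knockout shares were 90.7% and 90.5% for Ucp3, 74.7% and 80.6% for Slc25a28, 99.6% and 99.5% for Slc25a22, 28.7% and 24.2% for Slc25a36, and 94.8% in controls for Slc25a12. With 3 libraries a group and the muscle transcripts uneven among them, a member that was not called may still differ.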

Other observations

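Carriers reach the inner membrane through the outer membrane receptors, the small chaperones of the intermembrane space and the TIM22 insertion complex. The 14 genes listed for protein import and insertion, Oxa1l among them, were all tested and had positive log2 fold changes. These ran from 0.03 to 0.44 with a median of 0.19, and 51.7% of all tested genes had positive values. None of the 14 passed in edgeR, DESeq2 or limma-voom. None was past an unadjusted p of 0.05 in edgeR. Timm8b, a chaperone subunit, had the largest value (46.3 CPM in controls, 62.9 CPM in knockouts; 0.44 ± 0.20, SE). Without knockout library 1 the median was 0.08 and the value of Timm8b 0.21. Of 24 other transport genes of mitochondrial membranes, 23 were tested, 15 had positive values and 8 negative, and none passed. All knockouts lay above all controls for 9 of the 23, against 7.63% of all tested genes. Among them were both subunits of the mitochondrial pyruvate carrier, which is unrelated to the Slc25 family. Mpc1 was at 758 CPM in controls, against 936 CPM in knockouts (0.30 ± 0.12, SE) and Mpc2 at 448 and 598 CPM (0.42 ± 0.16, SE). Mtch1 and Mtch2, outer membrane relatives of the carriers, were at 184 and 232 CPM and at 311 and 382 CPM, also without overlap. Without knockout library 1, in which short transcripts were higher, the fold change of Mpc2 was 0.24 and that of Mtch1 0.18 (from 0.33) on the log2 scale, and those of Mpc1 and Mtch2 were 0.25 and 0.23. The channel subunits Vdac1 and Vdac3 had negative values (-0.18 and -0.19) with overlapping groups.

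In the 250 bases before the RefSeq start, 33 of the 41 tested members had an entry. The letters TGACG, found in cyclic AMP response elements, were present on either strand in 11 of them (33.3%) and in 19.8% of all 27025 genes, and CCAAT in 17 (51.5%) and 37.5%. TATAAA was in 0 of 33, against 14.3%, and AAGGTCA, bound by estrogen-related receptors, in 1 (3.03%), against 4.70%. These counts describe letters and were not tested.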
